A study of Homo sapiens with 6 samples.

Results

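The genes described here are 34 genes of cholesterol metabolism: the enzymes that build sterols, the SREBP machinery that controls them, and the proteins of sterol uptake, intracellular transport, storage and efflux. They were taken by symbol from a table of 27192 genes, by their roles and not by a cutoff on measured values, though earlier results of these data were known when they were chosen. The samples are U87 cells, a human glioblastoma line in long-term culture, and the study asked what knockdown of LINC00152, a long noncoding RNA, does to their transcripts. The siLINC00152 group was transfected with a mix of 2 siRNAs against LINC00152, and the siGL2 group with siGL2, given as a nonspecific control siRNA. Both groups were transfected 2 times with the same lipid reagent, 24 hours apart, with harvest another 24 hours later. Each group holds 3 libraries, A, B and C, from 1 cell line. Nothing in the labels says that they came from separate cultures, and p-values here measure the spread between these samples only, which may be technical.

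Cholesterol is built from acetyl-CoA through mevalonate, prenyl diphosphates, squalene and lanosterol. Transcription of these enzymes is driven by SREBP transcription factors, which leave the endoplasmic reticulum with their escort SCAP when membrane cholesterol is low and are held back by the INSIG proteins when it is high. Surplus cholesterol is esterified for storage or exported by ABC transporters under control of the liver X receptors (LXRs). Cells also take up cholesterol in lipoproteins, which are broken down in the lysosome.

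The total count per library was 41963120 to 43713662 in the siLINC00152 group and 42139419 to 46234763 in the siGL2 group. LINC00152 had 114, 112 and 109 counts in siLINC00152 libraries A, B and C against 650, 608 and 776 in the siGL2 libraries, and so stood at 17.6% of its siGL2 level (log2 fold change −2.51 ± 0.09, SE; edgeR adjusted p = 4.55e-15). It shares 20% of its 75-base stretches with other genes, chiefly MIR4435-2HG, and its level is uncertain to that extent. A fall of at least 2-fold was called in 3.53% of all tested genes. The mesenchymal and glioma markers VIM, NES, CD44 and SPARC were all above 30 CPM (counts scaled to library depth, with TMM factors) in every library. SPARC was higher in the siLINC00152 libraries, while VIM, NES and CD44 were lower there. Of 3 neuron markers, SNAP25 stood at 41.5 to 44.8 CPM in the siLINC00152 libraries and 62.4 to 64.4 CPM in the siGL2 libraries. SYT1 stood at 9.81 to 12.1 and 12.4 to 13.2 CPM in the same 2 groups, and RBFOX3 was at 0.0243 CPM or lower. The astrocyte marker GFAP was at 0.254 CPM or lower and AQP4 had no count in any library. Of 4 macrophage and microglia markers, CD68 stood at 286 to 312 CPM in the siLINC00152 libraries and 331 to 335 CPM in the siGL2 libraries, whereas PTPRC, AIF1 and CX3CR1 were at 0.0922 CPM or lower. These are bulk libraries, in which fewer cells of a kind and less RNA per cell cannot be told apart.

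The promoters of 30 of the 34 genes were in the RefSeq table (GRCh38.p14), and they are shown here because the boxes of the sterol response lie close to the start of many of these genes. The 250 bases before each annotated start were searched on both strands for the core of the sterol response element, TCACNCCAC, for the NF-Y box, CCAAT, and for an LXR element of 2 AGGTCA half-sites in the same direction, 4 bases apart. NF-Y is the factor that binds next to SREBP at many sterol promoters. Each sequence below is read 5′ to 3′ on the strand of its gene and ends at the furthest upstream start in GENCODE 29, and capitals mark the searched motifs (the NF-Y box reads ATTGG on the opposite strand). SREBF2, the gene of SREBP2, lies on the plus strand (chr22:41832929-41833078), as do INSIG1 (chr7:155297628-155297775) and MSMO1 (chr4:165327473-165327622), and HMGCS1 on the minus strand (chr5:43313513-43313662).
SREBF2: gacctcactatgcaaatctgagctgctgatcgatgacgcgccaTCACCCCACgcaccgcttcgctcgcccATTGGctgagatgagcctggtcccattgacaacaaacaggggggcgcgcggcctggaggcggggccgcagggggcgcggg
INSIG1: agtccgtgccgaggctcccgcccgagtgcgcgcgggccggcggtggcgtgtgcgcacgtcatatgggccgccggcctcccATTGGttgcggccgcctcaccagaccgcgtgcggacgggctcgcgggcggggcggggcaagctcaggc
HMGCS1: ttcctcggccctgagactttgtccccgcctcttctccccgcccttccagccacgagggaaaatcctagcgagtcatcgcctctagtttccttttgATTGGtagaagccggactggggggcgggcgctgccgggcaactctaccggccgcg
MSMO1: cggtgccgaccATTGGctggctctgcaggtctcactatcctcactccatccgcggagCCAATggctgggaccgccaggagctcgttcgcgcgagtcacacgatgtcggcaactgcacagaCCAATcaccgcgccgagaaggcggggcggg

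Of the 30 promoters, the SRE core was found in 1, that of SREBF2, where it begins 133 bases before the RefSeq start and the NF-Y box begins 106 bases before it, without overlap. Among all genes with a listed promoter, 297 of 27305 held the SRE core (1.09%). The NF-Y box was found in 23 of the 30 genes (76.7%), in 15 of 17 synthesis enzymes (88.2%) and in 8 of the other 13 genes (61.5%). Among all genes listed there 37.0% held it, and 41.8% of the 10270 tested genes found there. The LXR element was in none of the 30, in none of the 10270 tested genes and in 5 of all 27305 genes. Only exact matches to the searched strings were counted, so variant forms of the SRE core or the LXR element would be missed. The search therefore cannot tell which of the 30 genes lack a sterol response element or an LXR element. The NF-Y box did not separate the directions of change described next: 8 of 10 genes that rose and 8 of 11 that fell held it.

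Expression of the 34 genes went both ways after knockdown, with the largest rises in MYLIP, INSIG1, HMGCS1 and LIPA and the largest falls in NPC1 and PMVK. Of the 34, 33 had enough counts to be tested, and ABCG1 had no count in any library. At an adjusted p under 0.05 (edgeR quasi-likelihood test, Benjamini-Hochberg over 14078 genes), 24 of the 33 changed (72.7%), against 64.3% of all tested genes. Of these, 11 rose (33.3%, against 32.2% of all genes) and 13 fell (39.4%, against 32.2%). A change of at least 1.5-fold was found in 6 (18.2%, against 20.0% of all genes), of which 4 rose (9.53% of all genes did) and 2 fell (10.4% of all genes did). In 27 of the 33 (81.8%, against 67.7% of all genes) the CPM values of the groups did not overlap. The shares called lie near those of all genes. With library size alone as the scale, 8 rose and 15 fell. The median log2 fold change (siLINC00152 over siGL2 throughout) was −0.04 over the 33 genes and 0.00 over all tested genes, and the values ran from −0.94 to 1.03.

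**Figure D1:**
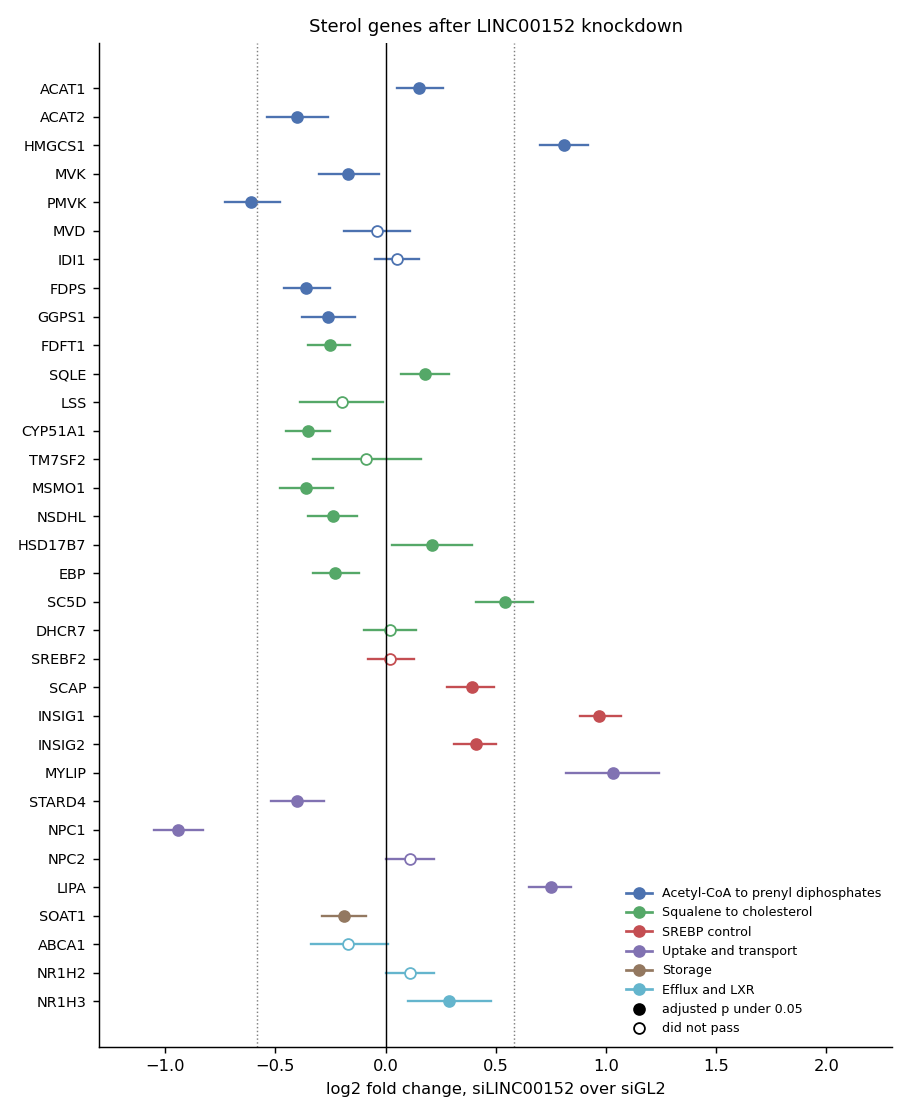
Log2 fold change of the 33 tested sterol genes (x axis, siLINC00152 over siGL2), coloured by role. Lines are 95% confidence intervals from the edgeR fit, filled points passed at an adjusted p under 0.05, and dotted lines mark 1.5-fold. HMGCS1, INSIG1, MYLIP and LIPA lie beyond 1.5-fold on the right and NPC1 and PMVK on the left, while most enzymes lie a little left of 0.

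Of the 4 SREBP control genes, 3 rose, 1 did not pass and none fell. INSIG1, whose product retains the SREBP and SCAP complex in the endoplasmic reticulum, stood at 358, 338 and 358 CPM in siLINC00152 libraries A, B and C against 177, 175 and 185 CPM in siGL2 libraries A, B and C. Every siLINC00152 library was thus far above every siGL2 library. INSIG1 (chromosome 7, 155297776 to 155310235, plus strand, hg38) rose 1.96-fold or by 0.97 ± 0.04 on the log2 scale (SE; edgeR adjusted p = 1.31e-13). INSIG2, its paralogue with the same retention role, stood at 68.2, 67.3 and 65.5 CPM in the siLINC00152 libraries against 48.9, 51.6 and 51.1 CPM in the siGL2 libraries and rose by 0.41 ± 0.05 on the log2 scale. SCAP, the escort and sterol sensor, rose by 0.39 ± 0.05, with 117, 108 and 109 CPM in the siLINC00152 libraries against 90.0, 83.9 and 81.0 CPM in the siGL2 libraries.

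SREBF2 itself, the factor that these proteins act on, did not pass the test. It stood at 75.9, 69.3 and 73.5 CPM in the siLINC00152 libraries against 74.5, 72.8 and 67.9 CPM in the siGL2 libraries, and the groups overlapped. Its log2 fold change of 0.02 had a 95% confidence interval of −0.08 to 0.13 (edgeR adjusted p = 0.702).

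**Figure D2:**
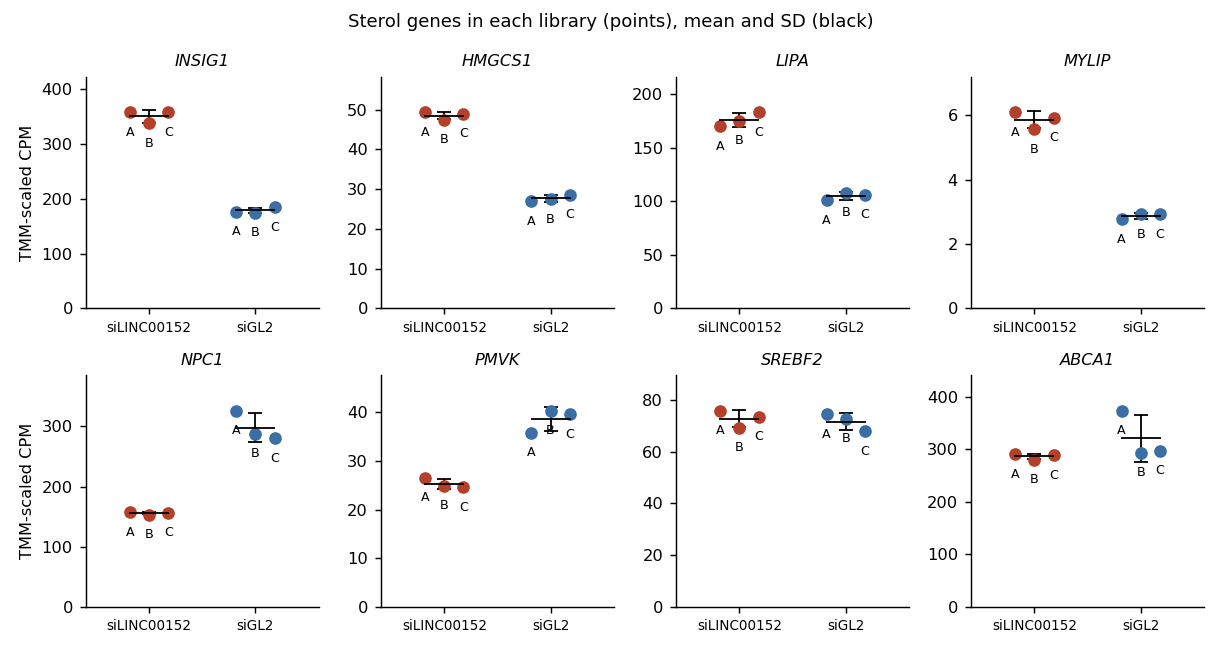
TMM-scaled CPM of 8 sterol genes (y axes, each from 0) in the siLINC00152 and siGL2 libraries. Points are libraries A, B and C, and black bars are the mean and SD of 3 libraries. The groups stand apart for INSIG1, HMGCS1, LIPA, MYLIP, NPC1 and PMVK, overlap for SREBF2, and for ABCA1 siGL2 library A lies above the other 5 libraries.

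Among the 9 enzymes from acetyl-CoA to the prenyl diphosphates, 2 rose (22.2%), 5 fell (55.6%) and 2 did not pass. Of all tested genes, 32.2% rose and 32.2% fell. HMGCS1, which makes HMG-CoA, stood at 49.3, 47.4 and 48.9 CPM in the siLINC00152 libraries against 26.9, 27.5 and 28.6 CPM in the siGL2 libraries, with no overlap. HMGCS1 (chromosome 5, 43289395 to 43313512, minus strand) rose 1.75-fold, by 0.81 ± 0.05 on the log2 scale (SE; edgeR adjusted p = 2.16e-11). PMVK, phosphomevalonate kinase, went the other way, at 26.5, 24.9 and 24.6 CPM in the siLINC00152 libraries against 35.8, 40.3 and 39.6 CPM in the siGL2 libraries. PMVK (chromosome 1, 154924734 to 154936991, minus strand) fell to 65.7% of its siGL2 level, a log2 difference of −0.61 ± 0.06 (SE; edgeR adjusted p = 1.41e-08). With a correction for gene length it fell by 0.48, which is under 1.5-fold.

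The other changes in this stretch were smaller. ACAT1, the mitochondrial acetoacetyl-CoA thiolase, rose by 0.15 ± 0.05 on the log2 scale, and its cytosolic counterpart ACAT2, which feeds sterol synthesis, fell by 0.40 ± 0.07 (SE). The mevalonate kinase gene MVK fell by 0.17 ± 0.06, the farnesyl diphosphate synthase gene FDPS by 0.36 ± 0.05 and the geranylgeranyl diphosphate synthase gene GGPS1 by 0.26 ± 0.06. The decarboxylase gene MVD, at −0.04 with a 95% confidence interval of −0.19 to 0.11, and the isomerase gene IDI1, at 0.05 with an interval of −0.05 to 0.15, did not pass. Exons on the other strand cover 52.3% of the exonic bases of ACAT2, 18.6% of FDPS, 15% of HMGCS1 and 14.8% of IDI1, and 32.2% of the 75-base stretches of GGPS1 also occur in other genes, mainly TBCE. Neither the strand setting of the counting nor the treatment of reads that match several genes was stated, so these values are uncertain to that extent.

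Of the 11 enzymes from squalene to cholesterol, 3 rose (27.3%, against 32.2% of all genes), 5 fell (45.5%, against 32.2%) and 3 did not pass. All changed by less than 1.5-fold. The largest change was in SC5D, a sterol desaturase near the end of the pathway, at 23.0, 26.1 and 26.7 CPM in the siLINC00152 libraries against 17.2, 17.1 and 17.9 CPM in the siGL2 libraries. It rose by 0.54 ± 0.06 on the log2 scale (SE; edgeR adjusted p = 2.95e-07). SQLE, squalene epoxidase, which is a rate-limiting step of the pathway, rose by 0.18 ± 0.05, and the keto reductase gene HSD17B7 by 0.21 ± 0.09.

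Falls were seen at 5 steps. FDFT1, squalene synthase, fell by 0.25 ± 0.05 (SE, log2 scale), the lanosterol demethylase gene CYP51A1 by 0.35 ± 0.05, the methylsterol oxidase gene MSMO1 by 0.36 ± 0.06, the dehydrogenase gene NSDHL by 0.24 ± 0.05 and the isomerase gene EBP by 0.23 ± 0.05. MSMO1 stood at 31.2, 32.7 and 35.7 CPM in the siLINC00152 libraries against 40.1, 43.7 and 44.1 CPM in the siGL2 libraries, with every siLINC00152 library lower. For NSDHL and EBP, whose exons span 1996 and 2409 bases, the falls were 0.13 and 0.14 with a correction for gene length, and both still passed. The lanosterol synthase gene LSS (−0.20, with a 95% confidence interval of −0.39 to −0.01), the sterol reductase gene TM7SF2 (−0.09, −0.33 to 0.16) and DHCR7, the reductase of the last step (0.02, −0.10 to 0.14), did not pass. Without siGL2 library A the LSS value was −0.08, and over all alternatives its adjusted p ran from 0.015 to 0.406, passing in 5 of 14. In CYP51A1, 77.5% of 75-base stretches also occur in the overlapping gene AC000120.2 or others.

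Levels per kilobase of exon differed far more between enzymes than between the groups. TM7SF2, HSD17B7 and LSS had the lowest levels of the 20 enzymes, at 0.806, 1.39 and 1.33 CPM per kb in the siLINC00152 libraries and 0.857, 1.20 and 1.52 CPM per kb in the siGL2 libraries. EBP had the highest in both groups, at 25.9 ± 1.07 CPM per kb in the siLINC00152 libraries and 30.3 ± 1.23 CPM per kb in the siGL2 libraries (SD, n = 3 each). PMVK had 19.8 CPM per kb in the siLINC00152 libraries and 30.1 ± 1.88 CPM per kb in the siGL2 libraries, where it came next after EBP. The levels of EBP and PMVK in the siGL2 libraries did not differ beyond their spread. HMGCS1 was at 10.3 CPM per kb in the siLINC00152 libraries and 5.88 CPM per kb in the siGL2 libraries. INSIG1 had the highest level per length of all 34 genes, 96.3 CPM per kb in the siLINC00152 libraries and 49.1 CPM per kb in the siGL2 libraries, above 97.6% and 94.0% of tested genes in those groups.

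**Figure D3:**
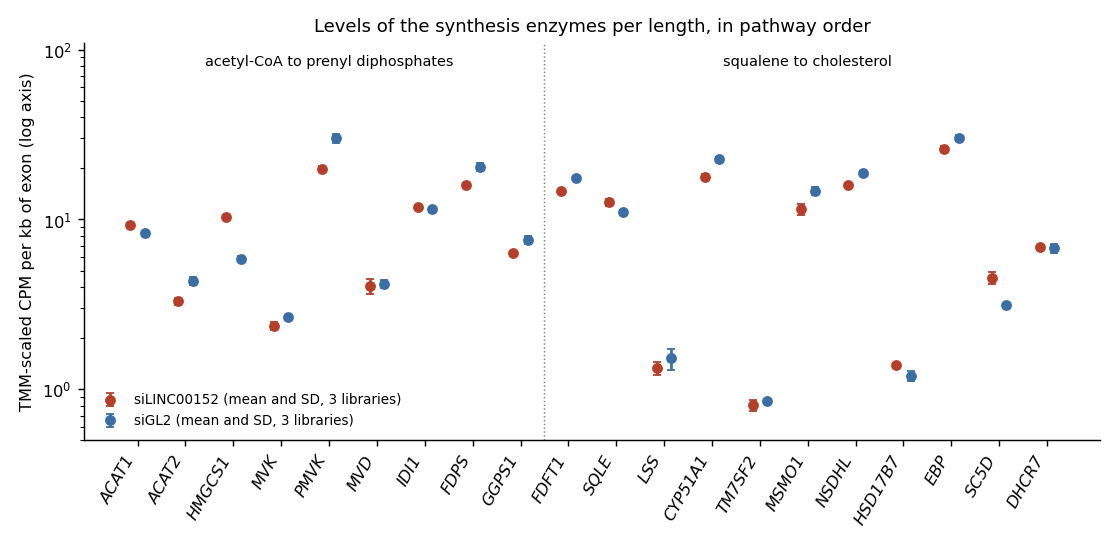
Level per exon length of the 20 synthesis enzymes (y axis, TMM-scaled CPM per kb, log axis) in the approximate order of the pathway (x axis). Points are means of 3 libraries and bars their SD. TM7SF2, HSD17B7 and LSS lie lowest in both groups, and HMGCS1 and PMVK show the widest gaps between the siLINC00152 and siGL2 libraries.

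Uptake and transport genes held both the largest rise and the largest fall. NPC1, the membrane protein that moves cholesterol out of the lysosome, stood at 157, 153 and 156 CPM in the siLINC00152 libraries against 326, 288 and 280 CPM in the siGL2 libraries. NPC1 (chromosome 18, 23506184 to 23586898, minus strand) fell to 52.2% of its siGL2 level, a log2 difference of −0.94 ± 0.05 (SE; edgeR adjusted p = 2.72e-12). siGL2 library A was the highest of the 3, and without it the log2 fold change was −0.87. NPC2, the soluble partner that hands cholesterol to NPC1, did not pass, with 103, 94.5 and 105 CPM in the siLINC00152 libraries against 88.7, 93.7 and 97.3 CPM in the siGL2 libraries and a log2 difference of 0.11 (edgeR adjusted p = 0.0629). With a correction for gene length NPC2 passed at 0.18 (edgeR adjusted p = 0.00104).

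LIPA, the lysosomal acid lipase that frees cholesterol from its esters, rose in the same libraries in which NPC1 fell. It stood at 170, 175 and 183 CPM in the siLINC00152 libraries against 101, 108 and 106 CPM in the siGL2 libraries. LIPA (chromosome 10, 89213569 to 89414557, minus strand) rose 1.68-fold, by 0.75 ± 0.05 on the log2 scale (SE; edgeR adjusted p = 1.74e-11). MYLIP, a ubiquitin ligase that marks lipoprotein receptors for degradation and is an LXR target, had 250, 234 and 252 counts in the siLINC00152 libraries against 120, 126 and 138 counts in the siGL2 libraries. MYLIP (chromosome 6, 16129125 to 16148248, plus strand) rose 2.04-fold, by 1.03 ± 0.10 on the log2 scale (SE; edgeR adjusted p = 1.35e-08), the largest rise of the 33 genes. Its level was low in both groups, at 5.86 ± 0.264 CPM in the siLINC00152 libraries and 2.87 ± 0.0875 CPM in the siGL2 libraries (SD, n = 3 each). STARD4, a soluble sterol carrier, fell by 0.40 ± 0.06, with 30.0, 27.1 and 30.3 CPM in the siLINC00152 libraries against 38.8, 36.6 and 39.7 CPM in the siGL2 libraries.

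Ratios within a library do not depend on how libraries are scaled. The ratio of LIPA to NPC1 per exon length was 2.22, 2.36 and 2.41 in siLINC00152 libraries A, B and C against 0.635, 0.772 and 0.777 in siGL2 libraries A, B and C, so that LIPA stood above NPC1 in each siLINC00152 library and below it in each siGL2 library. The ratio of INSIG1 to INSIG2 was 5.68 ± 0.235 in the siLINC00152 libraries and 3.84 ± 0.141 in the siGL2 libraries (SD, n = 3 each). That of HMGCS1 to FDPS was 0.650 ± 0.0195 in the siLINC00152 libraries and 0.289 ± 0.0102 in the siGL2 libraries (SD, n = 3 each). The groups overlapped in none of these 3 ratios. The LIPA to NPC1 and HMGCS1 to FDPS pairs were chosen after their values were seen and no test was made of them.

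**Figure D4:**
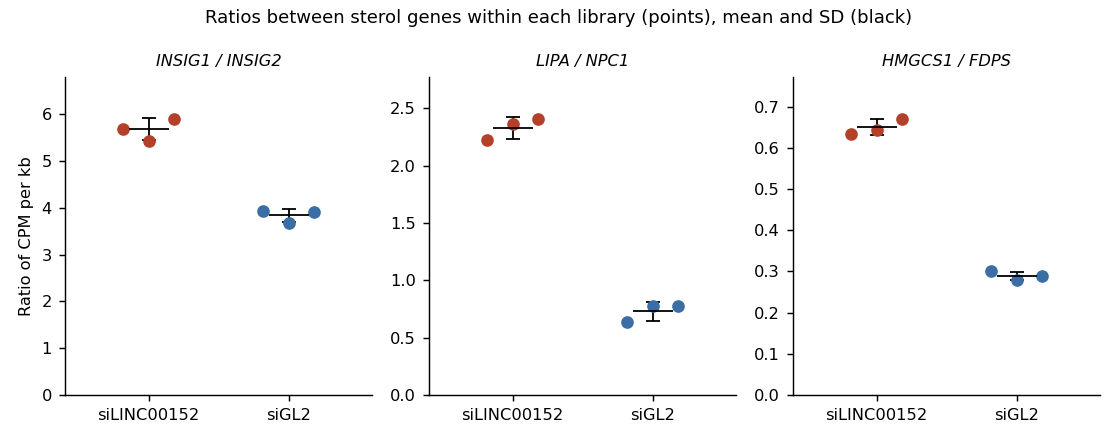
Ratio of CPM per kb between INSIG1 and INSIG2, LIPA and NPC1, and HMGCS1 and FDPS (y axes, each from 0) in the siLINC00152 and siGL2 libraries. Points are libraries, and black bars are the mean and SD of 3 libraries. All 3 ratios are higher in every siLINC00152 library than in any siGL2 library.

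Of the storage and efflux genes chosen here, SOAT1 and ABCA1 changed by less than 1.5-fold. Of 8 other tested genes of storage, efflux and oxysterols, 4 passed 1.5-fold, 3 higher and 1 lower. Most of these had 37 counts or fewer in every library. SOAT1, which esterifies cholesterol for storage in droplets, stood at 57.1, 55.9 and 53.7 CPM in the siLINC00152 libraries against 63.2, 63.2 and 63.9 CPM in the siGL2 libraries and fell by 0.19 ± 0.05 on the log2 scale (SE; edgeR adjusted p = 0.00125). ABCA1, the exporter of cholesterol to apolipoproteins, stood at 290, 280 and 288 CPM in the siLINC00152 libraries against 373, 293 and 297 CPM in the siGL2 libraries. It did not pass, with a log2 fold change of −0.17 and a 95% confidence interval of −0.34 to 0.01 (edgeR adjusted p = 0.0825). Without siGL2 library A, the highest of the 6, the log2 fold change was −0.04, and over all alternatives the adjusted p ran from 0.000305 to 0.301. ABCG1, the exporter to lipoprotein particles, had 0 counts in all 6 libraries, which allows a level of up to 0.073 CPM (3 counts in the library with the highest floor, on the same TMM scale, for counting error only).

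Of the LXR genes, NR1H3, LXR alpha, had 224, 228 and 235 counts in the siLINC00152 libraries against 196, 195 and 208 counts in the siGL2 libraries and rose by 0.29 ± 0.09 on the log2 scale (SE; edgeR adjusted p = 0.00826). NR1H2, LXR beta, stood higher per exon length than NR1H3, at 24.0 against 1.21 CPM per kb in the siLINC00152 libraries and 22.3 against 0.987 CPM per kb in the siGL2 libraries. Its log2 fold change of 0.11, with a 95% confidence interval of 0.00 to 0.22, did not pass (edgeR adjusted p = 0.0713). MYLIP and ABCA1 are both known LXR targets. MYLIP rose, while ABCA1 had lower values in each siLINC00152 library than in any siGL2 library without passing the test. The log2 fold change of ABCA1 was −0.04 without siGL2 library A. These 2 genes do not stand for all LXR targets, and LXR activity was not tested.

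Summed over each role, the 4 SREBP control genes held 619, 583 and 606 CPM in siLINC00152 libraries A, B and C against 391, 383 and 385 CPM in the siGL2 libraries, a sum made up mostly of INSIG1. The 11 enzymes from squalene to cholesterol held 395 ± 3.45 CPM in the siLINC00152 libraries and 439 ± 8.23 CPM in the siGL2 libraries, and the 9 upstream enzymes 309 ± 3.22 CPM and 323 ± 14.1 CPM in the same 2 groups (SD, n = 3 each). The upstream sums overlapped between the groups, since siGL2 library A, at 306 CPM, lay below all 3 siLINC00152 libraries. The 5 uptake and transport genes held 467 ± 11.9 CPM in the siLINC00152 libraries and 537 ± 16.9 CPM in the siGL2 libraries, and the 4 efflux and LXR genes 382 ± 11.0 CPM and 409 ± 45.0 CPM in the same 2 groups (SD, n = 3 each). The efflux and LXR sums overlapped too, at 394, 372 and 380 CPM in the siLINC00152 libraries against 461, 380 and 386 CPM in the siGL2 libraries, and without siGL2 library A their log2 ratio was −0.01, against −0.10 with it.

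Other genes of sterol and isoprenoid metabolism were as divided. The list has 49 genes and 47 were tested, of which 20 rose (42.6%, against 32.2% of all genes), 19 fell (40.4%, against 32.2%) and 8 missed the threshold. In all, 83.0% were called, against 64.3% of all genes, and 34% passed 1.5-fold, against 20.0%. Their median log2 difference was −0.02, against 0.00 over all genes. Of 10 genes of SREBP processing and sterol-regulated protein degradation, 6 rose (60%, against 32.2% of all genes), 2 fell (20.0%, against 32.2%) and 2 did not pass. MBTPS1, the Golgi protease that makes the first cut in SREBPs, rose by 0.67 ± 0.04 on the log2 scale (SE), with 198 ± 2.93 CPM in the siLINC00152 libraries and 124 ± 1.41 CPM in the siGL2 libraries (SD, n = 3 each). SREBF1, which encodes the SREBP of fatty acid synthesis, rose by 0.73 ± 0.06, VLDLR, a lipoprotein receptor gene, by 0.66 ± 0.04 and FAXDC2 by 1.62 ± 0.11. TMEM97, an NPC1-binding membrane protein, fell by 0.88 ± 0.05, with 21.5 CPM in the siLINC00152 libraries and 39.7 CPM in the siGL2 libraries. RABGGTB, a subunit of the enzyme that attaches geranylgeranyl groups to Rab proteins, fell by 0.83 ± 0.05, EBPL, the paralogue of EBP, by 0.76 ± 0.08 and LBR, a lamin receptor with sterol reductase activity, by 0.38 ± 0.05. All 8 had an edgeR adjusted p of at most 3.55e-07. They also passed with a correction for gene length, where MBTPS1 and VLDLR stood at 0.58 each and EBPL at −0.64. Exons on the other strand cover 11.9% of the exonic bases of TMEM97. The isoprenoid branches to dolichol, ubiquinone and prenylated proteins held 11 genes. Of these 11, 3 rose (27.3%), 5 fell (45.5%) and 3 did not pass, against the same 32.2% of all genes each way.

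Of the 24 sterol genes that changed, 20 kept their direction and their adjusted p under 0.05 in all 14 alternative settings or left-out libraries. The other 4, ACAT1, MVK, SQLE and HSD17B7, had log2 fold changes within 0.21 of 0 and lost the call in at least 1 setting. ACAT1 missed the threshold with library size alone (adjusted p = 0.137) and without siLINC00152 library B (0.0514), and SQLE with library size alone (0.0557). MVK missed it with DESeq2 (0.0554), without siGL2 library B (0.076) and without siLINC00152 library B (0.144) or C (0.0651). HSD17B7 missed it in 8 of 14, among them each siLINC00152 library and siGL2 libraries A and B left out.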

How the data were processed

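The libraries were directional, made from polyA RNA and read as pairs of 75 bases, per the labels' protocols. The deposited values are raw, unnormalized counts per gene symbol, with 1 table for each of 6 libraries. Per the submitters' processing notes, HISAT, HTSeq, DESeq and hg38 were used; versions, annotation, strand setting and the treatment of multiply mapped reads were not given in the sources read.

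The members and gene lists were chosen with earlier results of these data known. All 34 members are named, as are LINC00152 and, from 49 other pathway genes, those with the 4 smallest p in each direction. filterByExpr (minimum count 10, minimum total count 15) kept 14078 of 27192 genes. Groups were compared with edgeR 4.0.16 in R 4.3.3, using TMM scaling (factors 0.975 to 0.979 in siLINC00152, 1.02 to 1.03 in siGL2) and the two-sided robust quasi-likelihood test, with no covariate and Benjamini-Hochberg adjustment over all tested genes; the procedure was tested on simulated data. An SE is the absolute log2 fold change over the root of F. Levels per kb use exon unions of GENCODE 29, to which 24614 symbols were matched. Chi-square per degree of freedom between libraries of a group was 2.91 to 13.7, highest for the pairs with siGL2 library A, so none was counted as a repeat.

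Alternatives were DESeq2 1.42.0, limma-voom (limma 3.58.1), other scalings and filters, a gene length offset, a replicate block, and each library left out.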

Additional observations from a re-analysis of the deposited data

How the results depend on the processing

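Counts of sterol genes that rose, fell or passed 1.5-fold, counts over the other pathway genes and over all genes, and the fall of LINC00152 kept their direction and stayed within 1.5 times under every alternative run. With each library left out in turn, 10 to 12 sterol genes rose, 12 to 14 fell and 5 to 7 passed 1.5-fold, with a median log2 fold change between −0.12 and 0.02. With library size alone as the scale, the median of all tested genes moved to −0.07, and the log2 ratio of summed CPM moved to −0.13 for the upstream enzymes (−0.06 with TMM), −0.22 for the squalene to cholesterol enzymes (−0.15), 0.57 for SREBP control (0.64), −0.27 for uptake and transport (−0.20), −0.26 for storage (−0.19) and −0.17 for efflux and LXR (−0.10). No called sterol gene changed sign in any alternative. Among the 9 not called, 4 did: SREBF2 stood at −0.03 with the gene length offset, −0.04 with library size alone, −0.02 without siGL2 replicate C and 0.00 without siLINC00152 replicate A (leave-one-out range −0.02 to 0.06), DHCR7 at −0.05 with library size alone and at −0.01 and −0.02 without siGL2 replicates B and C (range −0.02 to 0.07), IDI1 at −0.02 with library size alone, and MVD at 0.02 without siLINC00152 replicate C.

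Letters A, B and C are shared by the groups. The correlation of deviations from the group means between libraries of the same letter was 0.0818, −0.0129 and 0.0698. Between libraries of unlike letters it ran from −0.1 to 0.0365. The labels do not say that a letter marks a shared culture or day, so letters were not taken as pairs. With a replicate block 11 sterol genes rose and 15 fell, since LSS (adjusted p = 0.0491) and ABCA1 (adjusted p = 0.0245) then passed. The 8 other pathway genes named singly were put through the same alternatives after the data were seen.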
